A study of Mus musculus with 7 samples.

Results

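Immediate early genes were examined in hematopoietic stem cells (HSCs) sorted from mouse bone marrow by how brightly an Hdc-GFP reporter shone. Hdc encodes histidine decarboxylase, the enzyme that makes histamine, and GFP is the green fluorescent protein. The 34 genes were chosen by symbol from the deposited count table, all 34 symbols were found among its 23284 genes, and 30 of them had enough counts to be tested. The study compared a bright fraction, Hdc-GFPhi (3 libraries), with a dim fraction, Hdc-GFPlo (4 libraries), each library made from RNA of 500 sorted cells. All 7 samples were bone marrow HSCs of the C57BL/6 strain carrying the Hdc-GFP reporter. The labels give no age or treatment. Hdc-GFPlo replicate 4 was labelled as the GFP-negative sorted fraction, whereas the other 3 libraries of its group were labelled GFPlo. A sort on such a reporter separates cells by its fluorescence, and the labels do not describe the surface gate that defined the HSCs.

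Immediate early genes are switched on within minutes of a stimulus, without new protein synthesis, by transcription factors that are already present in the cell. Growth factor and stress kinases act through serum response factor and its Elk partners at CArG boxes, and through CREB at cyclic AMP response elements. Many of the products are transcription factors of the AP-1, Egr and Nr4a families, and others switch the response off, such as phosphatases of MAP kinases and proteins that destroy short-lived mRNAs. In hematopoietic cells these genes are known to respond to cytokines and adhesion, and also to enzymatic dissociation, warming and passage through a cell sorter.

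Promoter windows of 26 of the 34 genes were found in RefSeq (build GRCm38.p6, with 250 bases before and 50 after each start site). The windows of Fos, Dusp1, Btg2 and Zfp36 are printed because these genes stood high together in the same libraries. That of Dusp6 is printed because this gene shared their highest library but was lowest in Hdc-GFPlo replicate 4. Capitals mark the core of the cyclic AMP response element, TGACG on either strand, and the CArG box.
Fos, chr12:85473640-85473939, plus strand: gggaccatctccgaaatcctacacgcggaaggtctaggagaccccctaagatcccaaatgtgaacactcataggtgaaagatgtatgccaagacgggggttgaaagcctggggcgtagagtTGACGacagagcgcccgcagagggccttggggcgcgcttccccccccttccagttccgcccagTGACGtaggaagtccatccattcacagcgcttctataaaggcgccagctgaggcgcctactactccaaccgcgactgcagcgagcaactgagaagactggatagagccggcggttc
Dusp1, chr17:26508423-26508722, minus strand: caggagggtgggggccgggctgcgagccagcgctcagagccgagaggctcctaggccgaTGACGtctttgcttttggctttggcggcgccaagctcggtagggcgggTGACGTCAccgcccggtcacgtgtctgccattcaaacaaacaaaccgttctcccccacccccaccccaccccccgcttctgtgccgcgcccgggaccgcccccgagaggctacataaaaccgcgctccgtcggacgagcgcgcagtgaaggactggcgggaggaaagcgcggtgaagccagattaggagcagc
Btg2, chr1:134079106-134079405, minus strand: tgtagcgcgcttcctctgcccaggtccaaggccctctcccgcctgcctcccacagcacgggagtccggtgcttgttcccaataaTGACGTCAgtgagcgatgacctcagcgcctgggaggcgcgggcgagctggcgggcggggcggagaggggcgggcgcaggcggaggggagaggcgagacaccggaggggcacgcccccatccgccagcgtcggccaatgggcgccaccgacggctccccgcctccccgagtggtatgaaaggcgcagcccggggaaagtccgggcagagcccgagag
Zfp36, chr7:28379179-28379478, minus strand: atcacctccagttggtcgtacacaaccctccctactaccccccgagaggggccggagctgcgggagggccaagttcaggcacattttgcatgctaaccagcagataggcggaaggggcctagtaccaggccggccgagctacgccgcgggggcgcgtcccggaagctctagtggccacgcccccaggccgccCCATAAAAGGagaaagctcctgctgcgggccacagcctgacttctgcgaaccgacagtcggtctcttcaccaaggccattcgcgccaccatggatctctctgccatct
Dusp6, chr10:99262981-99263280, plus strand: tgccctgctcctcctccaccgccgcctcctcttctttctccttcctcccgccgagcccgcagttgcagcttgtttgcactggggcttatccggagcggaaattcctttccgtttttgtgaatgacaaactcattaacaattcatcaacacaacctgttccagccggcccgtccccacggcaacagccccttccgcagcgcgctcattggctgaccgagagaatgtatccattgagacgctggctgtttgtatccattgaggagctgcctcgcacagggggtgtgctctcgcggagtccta
The full palindrome TGACGTCA stood in the windows of Dusp1 and Btg2, also in 1 window of Maff, and in 1.79% of all windows. The core TGACG, which is part of the palindrome, was found in 23 of the 35 windows of these genes and in 20.8% of all 32851 windows. Those 23 windows belong to 17 of the 26 genes, since some genes have several windows, in part overlapping. A CArG box was found in 6 of the 35 windows, which belong to Zfp36, Dusp5 and Egr2 (4 windows, of which 3 overlap), and in 1.63% of all windows. The Dusp6 window held none of these motifs. Nor did the windows of Jun, Jund, Ier3, Ier5 and Rhob, although these genes, like Dusp6, were highest in Hdc-GFPhi replicate 1. The core also stood in windows of genes that did not follow Fos, such as Nr4a2 (4 sites), Nfil3 and Csrnp1. The printed windows thus do not stand for the whole list. The AP-1 site TGAGTCA was found in 1 of the 35 windows, that of a Csrnp1 start site, and in 5.2% of all windows. The motifs were searched on both strands and chosen after the values were seen, and these matches describe letters in a short window, with no binding measured.

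Total counts ranged from 19606124 to 23688672 per library, and 13483 to 14185 genes had at least 1 count. Levels are given in CPM, counts divided by the TMM-scaled library size, and a gene with no count in a library may lie anywhere up to 3 counts there, or 0.127 to 0.153 CPM. These limits cover counting error only, since amplified reads carry no molecular identifiers. Whether replicates came from different mice is not stated, so the p-values here reflect sample-to-sample spread that may be technical. The HSC and progenitor markers Kit, Ly6a, Procr and Slamf1 were counted in every library, with Kit at 992 to 1695 CPM and Procr at 40.5 to 47.2 CPM. In bulk RNA, fewer cells with a transcript and less of it per cell cannot be told apart.

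No immediate early gene passed the test between the fractions, and the highest values lay in a single library of each, Hdc-GFPhi replicate 1 and, by less, Hdc-GFPlo replicate 4. The 34 genes together took 1.25% of all counts in Hdc-GFPhi replicate 1, against 0.382% and 0.320% in Hdc-GFPhi replicates 2 and 3. In Hdc-GFPlo replicates 1 to 4 they took 0.312%, 0.266%, 0.294% and 0.527%. Hdc-GFPhi replicate 1 held the highest value for 20 of the 30 tested genes, while over all 12917 tested genes it held the highest value for 21.9%. Hdc-GFPhi replicate 1 and Hdc-GFPlo replicate 4 were the 2 highest libraries for 15 of the 30 genes, a pair that came out highest for 7.50% of all tested genes.

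**Figure D1:**
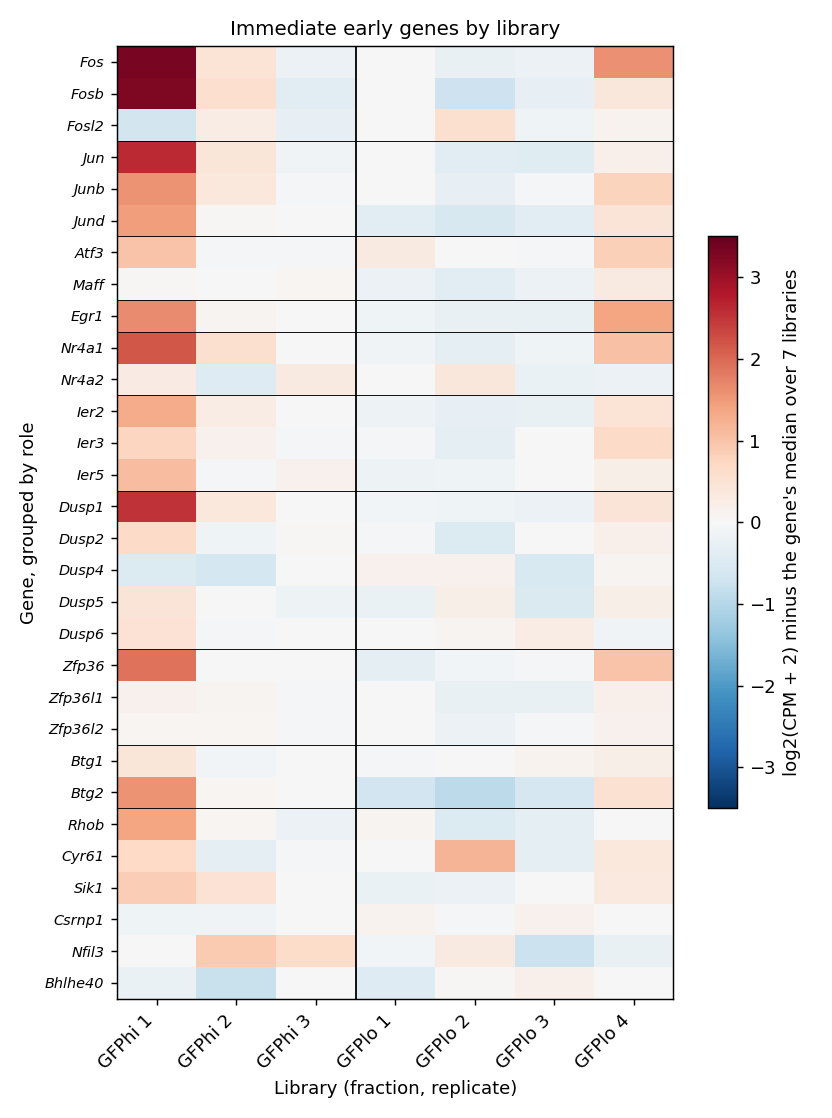
Heat map of the 30 tested immediate early genes (rows, grouped by role) in the 7 libraries (columns, with a line between Hdc-GFPhi and Hdc-GFPlo). Colour gives log2(CPM + 2) minus the gene's median over the libraries, and red fills the columns of Hdc-GFPhi replicate 1 and, more faintly, Hdc-GFPlo replicate 4.

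Fos and Jun, whose products join as the AP-1 transcription factor, were among the genes with the widest range between libraries. Fos was measured at 3636, 509 and 313 CPM in Hdc-GFPhi replicates 1 to 3 and at 361, 303, 314 and 1098 CPM in Hdc-GFPlo replicates 1 to 4. Hdc-GFPhi replicate 1 was the highest, Hdc-GFPlo replicate 4 the second, and the other 5 libraries of both fractions lay together. Per kilobase of exon, Fos had the highest mean level of the 34 genes (443 CPM per kb), followed by Dusp1 (235) and Ier2 (211). Between the fractions its log2 fold change was 1.52 (SE 1.05, edgeR adjusted p = 0.623), and the sign turned without Hdc-GFPhi replicate 1 (-0.34, SE 0.71).

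Fosb, the close relative of Fos, was measured at 62.7, 7.98 and 3.08 CPM in Hdc-GFPhi and at 4.70, 2.08, 3.48 and 6.76 CPM in Hdc-GFPlo. Only Hdc-GFPhi replicate 1 stood clear here, and Hdc-GFPlo replicate 4 lay below Hdc-GFPhi replicate 2. Its log2 fold change of 2.53 (SE 0.93) was the largest of the 30 and had the smallest unadjusted p (0.0274 by edgeR, adjusted p = 0.347), and it was 0.38 (SE 0.59) without Hdc-GFPhi replicate 1. Fosl2, a relative with slower induction, went the other way within Hdc-GFPhi. It was measured at 4.07, 9.23 and 5.74 CPM there and at 7.41, 11.8, 6.52 and 8.21 CPM in Hdc-GFPlo, so that Hdc-GFPhi replicate 1 was its lowest library. Fosl1 was counted 0 to 5 times per library and was not tested.

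Among the Jun family, Jun was measured at 1896, 416 and 283 CPM in Hdc-GFPhi and at 310, 236, 230 and 353 CPM in Hdc-GFPlo. Hdc-GFPhi replicate 1 stood alone for Jun, since Hdc-GFPlo replicate 4 lay below Hdc-GFPhi replicate 2. Junb, at 328, 140 and 107 CPM against 109, 88.5, 106 and 189 CPM, and Jund, at 258, 95.2 and 92.9 CPM against 71.3, 62.0, 69.6 and 129 CPM, had both libraries on top. The log2 fold changes between the fractions were 1.61 (SE 0.70) for Jun, 0.64 (SE 0.42) for Junb and 0.84 (SE 0.42) for Jund, and none passed edgeR (adjusted p = 0.438, 0.586 and 0.470). Atf3, a stress-induced partner of Jun, had 48, 0 and 0 counts in the 3 Hdc-GFPhi libraries and 11, 1, 0 and 35 counts in the 4 Hdc-GFPlo libraries. Its counts were thus highest in the same pair of libraries, at a low level. Maff, a small Maf factor, had a narrow range of 3.83 to 7.30 CPM with its highest value in Hdc-GFPlo replicate 4.

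Egr1, a zinc finger factor and classic target of serum response factor, was high in both of these libraries. It was measured at 990, 335 and 312 CPM in Hdc-GFPhi and at 279, 258, 261 and 823 CPM in Hdc-GFPlo. The other 5 libraries spanned 258 to 335 CPM, with Hdc-GFPhi replicates 2 and 3 just above Hdc-GFPlo replicates 1 to 3. Its log2 fold change was 0.43 (SE 0.66, edgeR adjusted p = 0.841), and -0.32 (SE 0.61) without Hdc-GFPhi replicate 1. Egr2 was counted 28 and 14 times in Hdc-GFPhi replicates 1 and 3 and 0 times in the other 5 libraries, and Egr3 at most 1 time in any library, so neither was tested.

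The Nr4a genes, which encode orphan nuclear receptors, were not alike. Nr4a1 was measured at 60.1, 18.3 and 11.8 CPM in Hdc-GFPhi and at 10.7, 8.89, 10.5 and 26.1 CPM in Hdc-GFPlo. The same pair of libraries was on top, and the difference between the fractions did not pass (log2 fold change 1.10, SE 0.56, edgeR adjusted p = 0.459). Nr4a2, at 13.7, 7.44 and 14.03 CPM against 10.8, 14.9, 8.84 and 9.18 CPM, did not, and its highest library was Hdc-GFPlo replicate 2. Nr4a3, the relative known from studies of HSC quiescence and leukemia, had 0 counts in all 7 libraries, where a count of 0 allows up to 0.153 CPM.

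**Figure D2:**
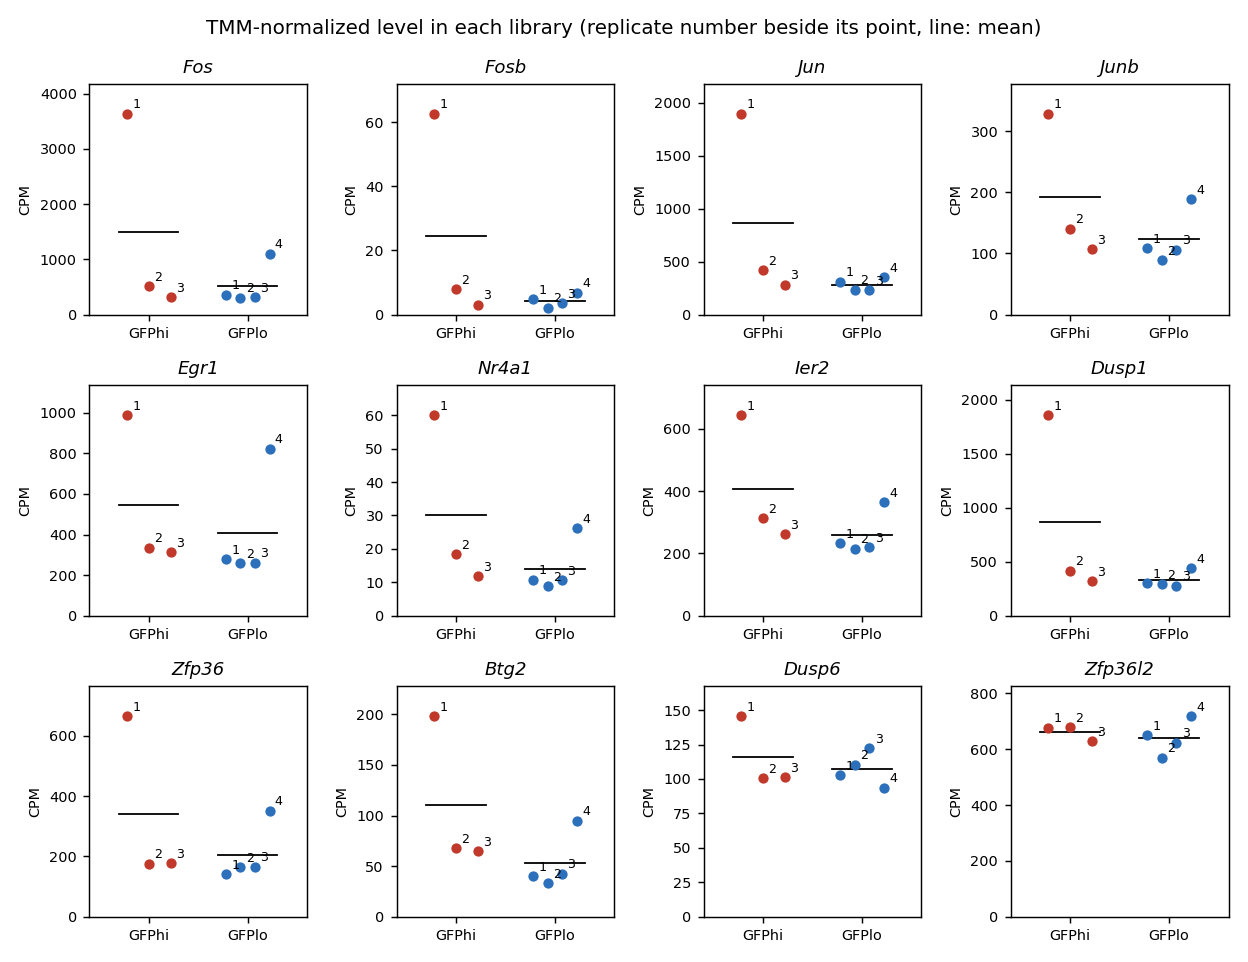
Level in CPM (vertical axes, from 0) of 12 immediate early genes in Hdc-GFPhi (red) and Hdc-GFPlo (blue), with the replicate number beside each library's point and a line at the mean. Hdc-GFPhi replicate 1 is the highest point for Fos (3636 CPM) and the 10 genes from Fosb to Dusp6, and Hdc-GFPlo replicate 4 reaches 823 CPM for Egr1, while Dusp6 and Zfp36l2 vary little.

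The immediate early response genes Ier2, Ier3 and Ier5 all had their highest value in Hdc-GFPhi replicate 1. Ier2, a nuclear protein gene, was measured at 644, 312 and 262 CPM in Hdc-GFPhi and at 233, 214, 219 and 364 CPM in Hdc-GFPlo. Ier3, a survival factor gene, was measured at 85.1, 54.6 and 46.8 CPM against 47.0, 39.4, 49.5 and 80.4 CPM, so that Hdc-GFPlo replicate 4 nearly equalled Hdc-GFPhi replicate 1. For Ier5, at 83.4, 36.8 and 42.9 CPM against 33.2, 34.2, 38.1 and 44.6 CPM, Hdc-GFPlo replicate 4 was second but lay near the rest. None of the 3 passed edgeR between the fractions (adjusted p = 0.461, 0.808 and 0.450).

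Genes that limit the response followed it to different degrees. Dusp1, a nuclear phosphatase of stress-activated MAP kinases, was measured at 1860, 416 and 320 CPM in Hdc-GFPhi and at 301, 291, 277 and 441 CPM in Hdc-GFPlo. Hdc-GFPhi replicate 1 stood far above the rest, Hdc-GFPlo replicate 4 was only just above Hdc-GFPhi replicate 2, and the log2 fold change between the fractions was 1.40 (SE 0.67, edgeR adjusted p = 0.468). Dusp2, another nuclear phosphatase, spanned 146 to 328 CPM with both libraries on top. Dusp6, the cytoplasmic phosphatase of ERK and a usual readout of sustained ERK activity, was measured at 146, 101 and 101 CPM against 103, 110, 122 and 93.6 CPM. For Dusp6, Hdc-GFPlo replicate 4 was the lowest library. Dusp4 and Dusp5 were low (3.62 to 7.46 and 5.18 to 11.9 CPM), and neither had the same pair of libraries on top as Fos.

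Zfp36, which encodes tristetraprolin, a protein that speeds the decay of AU-rich mRNAs, was measured at 665, 175 and 179 CPM in Hdc-GFPhi and at 141, 164, 166 and 352 CPM in Hdc-GFPlo. Its paralog Zfp36l2 was measured at 676, 678 and 629 CPM against 651, 569, 623 and 718 CPM. Zfp36 thus had the same pair on top as Fos, and Zfp36l2, abundant in all 7 libraries, spanned a ratio of 1.26 from the lowest to the highest. Zfp36l1 lay between 7.41 and 10.7 CPM. The antiproliferative gene Btg2, a target of p53 as well as of growth factors, was measured at 198, 67.6 and 64.8 CPM against 40.2, 33.1, 42.5 and 95.0 CPM. All Hdc-GFPhi libraries lay above Hdc-GFPlo replicates 1 to 3 for Btg2, and Hdc-GFPlo replicate 4 lay second of 7 (log2 fold change 1.06, SE 0.52, edgeR adjusted p = 0.456). Its relative Btg1 spanned 65.1 to 93.3 CPM.

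The remaining genes were mixed. Rhob, a small GTPase of endosomes, was measured at 79.8, 31.1 and 25.2 CPM in Hdc-GFPhi and at 31.7, 20.4, 23.0 and 29.6 CPM in Hdc-GFPlo, with Hdc-GFPhi replicate 1 alone on top. Sik1, a salt-inducible kinase, lay between 9.88 and 23.4 CPM, highest in Hdc-GFPhi replicate 1. Cyr61, a matricellular protein and target of serum response factor in other cells, was counted 45, 0 and 8 times against 10, 69, 0 and 25 times, and its highest library was Hdc-GFPlo replicate 2. Csrnp1, a gene for a cysteine-serine-rich nuclear protein, spanned only 32.0 to 40.1 CPM, and Bhlhe40, a transcriptional repressor, spanned 7.86 to 16.9 CPM. Both had their highest value in Hdc-GFPlo replicate 3.

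Nfil3, a bZIP repressor needed for natural killer cell development, was the second gene at an unadjusted p under 0.05 and did not follow Fos. It was measured at 6.72, 14.5 and 11.7 CPM in Hdc-GFPhi and at 6.15, 8.79, 3.21 and 5.27 CPM in Hdc-GFPlo. Hdc-GFPhi replicates 2 and 3 were its highest libraries, and Hdc-GFPhi replicate 1 lay below Hdc-GFPlo replicate 2. The log2 fold change was 0.90 (SE 0.39, unadjusted p = 0.0458, edgeR adjusted p = 0.399) with all libraries and 1.16 (SE 0.40, adjusted p = 0.606) without Hdc-GFPhi replicate 1.

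At an adjusted p of 0.05, edgeR called 0 of these 30 genes and 0 of all 12917 genes (0%). Log2 fold changes were above 0 for 25 of the 30 genes (median 0.37), against 51.6% of all tested genes (median 0.01). At an unadjusted p under 0.05, 2 genes were higher in Hdc-GFPhi and 0 lower, against 4.92% and 7.31% of all tested genes. Of all genes at that level, 40.2% were higher in Hdc-GFPhi, and 51.8% when libraries were scaled by their totals. DESeq2 called 0 of the 30 at an adjusted p of 0.05. Of all genes with an adjusted p, it called 0.718% higher and 2.76% lower. It put 5 of the 30 at an unadjusted p under 0.05, all higher. Of all 12917 genes it put 1838 at that level, 37.7% of them higher. The libraries of the fractions overlapped for each of the 30 genes, whereas among all tested genes 6.02% had every Hdc-GFPhi value on the upper side and 5.87% on the lower.

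The balance of directions depended on which of the high libraries were included. Without Hdc-GFPhi replicate 1 and with Hdc-GFPlo replicate 4 kept, 16 of 30 genes had values above 0 and 14 below (median 0.01), against 50.5% above 0 over all genes, and 1 gene, Nfil3, was at an unadjusted p under 0.05 and higher (2.75% of all genes were), with 0 lower (4.75% of all genes). Without Hdc-GFPlo replicate 4, 24 of 29 were above 0 (51.4% of all genes) with a median of 0.63, and 6 were at an unadjusted p under 0.05 and higher (5.37% of all genes), with 0 lower (7.57% of all genes). Those were Btg2, Nr4a1, Jund, Ier2, Sik1 and Fosb, and 0 passed after adjustment. The groups then did not overlap for 9 of the 30 genes, with Hdc-GFPhi above, against 10.4% of all tested genes.

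With both libraries set aside, Hdc-GFPhi replicates 2 and 3 were left against Hdc-GFPlo replicates 1 to 3. Values were above 0 for 21 of 29 genes (49.5% of all genes), with a median log2 fold change of 0.17. At an unadjusted p under 0.05, 6 genes were higher, against 3.09% of all genes, and 0 lower, against 6.07%. These were Btg2 (log2 fold change 0.77, SE 0.15), Jund (0.47, SE 0.12), Ier2 (0.36, SE 0.10), Egr1 (0.27, SE 0.08), Dusp1 (0.34, SE 0.12) and Nfil3 (1.10, SE 0.44). None passed edgeR over all genes, with adjusted p of 0.299 to 0.517, and the libraries were set aside because they stood apart in these genes.

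**Figure D3:**
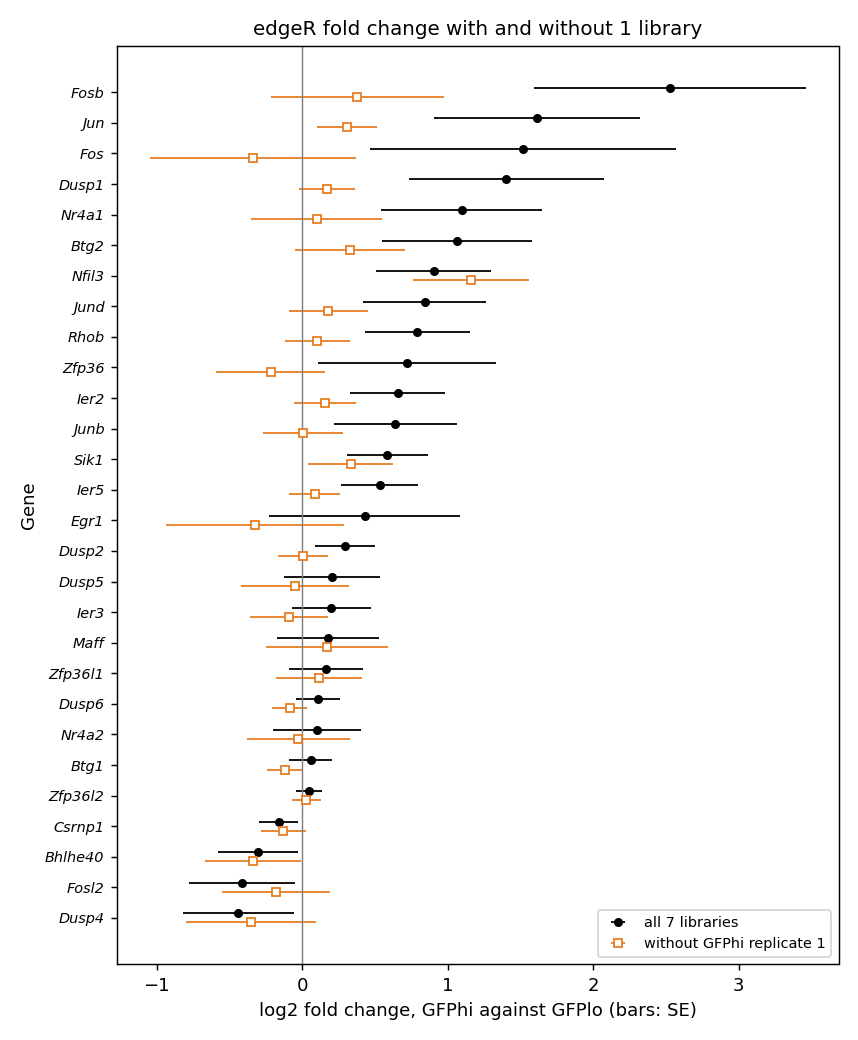
Log2 fold change of Hdc-GFPhi against Hdc-GFPlo (horizontal axis, bars give the SE from edgeR) for 28 immediate early genes, with all 7 libraries (black) and without Hdc-GFPhi replicate 1 (orange). Atf3 and Cyr61, which have libraries at 0 counts, are left out, and the values of Fosb, Jun, Fos and Dusp1 move from between 1.40 and 2.53 to between -0.34 and 0.38.

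Each library was also set against the mean of the others of its own fraction, with ratios here for the pair that stood high. By this measure, and leaving aside Atf3 and Cyr61, which have libraries at 0 counts, Fos was 8.85 times and Fosb 11.3 times as high in Hdc-GFPhi replicate 1, followed by Jun (5.43), Dusp1 (5.05), Nr4a1 (3.99), Zfp36 (3.76) and Egr1 (3.06). In Hdc-GFPlo replicate 4, Fos was 3.37 times, Egr1 3.09 times and Nr4a1 2.60 times as high, followed by Btg2 (2.46) and Zfp36 (2.24). The ratios there were smaller for Jun (1.37) and Dusp1 (1.52), although Dusp1 lay above the other 3 libraries of its group. The increments thus coincided for Egr1 and were far apart for Fosb, Jun and Dusp1.

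Across the 30 genes, on log2(CPM + 2), the departures of Hdc-GFPhi replicate 1 and Hdc-GFPlo replicate 4 from their own groups correlated with a Pearson's r of 0.70 (Spearman's rho 0.72), compared with 0.13 over all 12917 genes. This pair was picked because these genes stood high in it, so the correlation restates that choice in part and is no test. Genes are not independent replicates, and both libraries were made by the same amplification. For the same reason no weight rests on the departures above 0 in both libraries, which 23 of the 30 genes had, against 26.2% of all genes. The median departure was 0.80 in Hdc-GFPhi replicate 1 and 0.39 in Hdc-GFPlo replicate 4, and it lay between -0.62 and -0.18 in the other 5 libraries, whose groups contain 1 of these libraries.

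**Figure D4:**
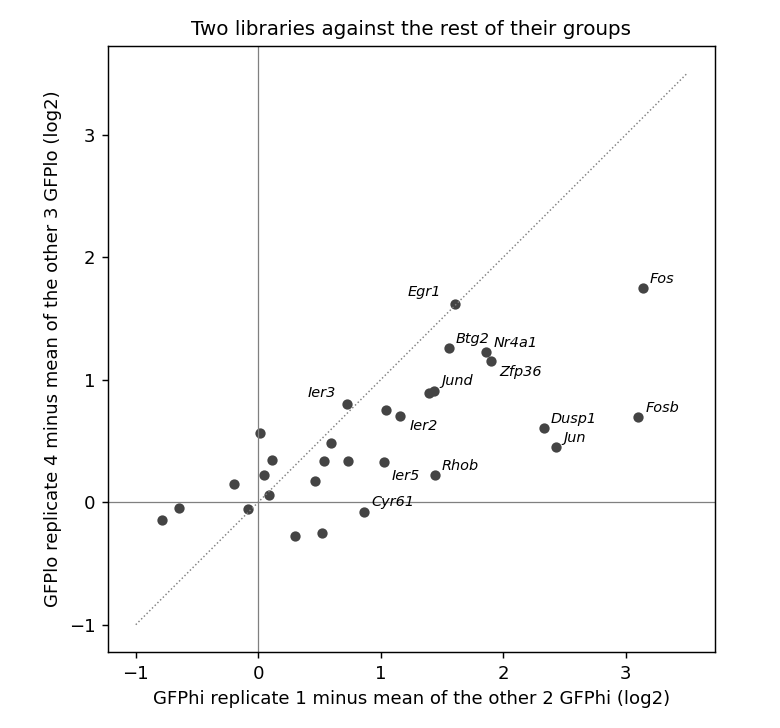
Departure of Hdc-GFPhi replicate 1 (horizontal axis) and of Hdc-GFPlo replicate 4 (vertical axis) from the mean of the other libraries of its own fraction, on log2(CPM + 2), with 1 point for each of 30 genes and a dotted line of equal departure. Egr1 lies on that line, and Fosb, Jun and Dusp1 lie far to its right.

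Of 33 other tested genes known from early and dissociation responses, 26 had log2 fold changes above 0 (median 0.51), against 51.6% of all tested genes. At an unadjusted p under 0.05, 8 were higher and 0 lower, against 4.92% and 7.31% of all tested genes, and 0 passed after adjustment. The smallest unadjusted p were those of Ccnl1, a cyclin of the splicing machinery (log2 fold change 0.66, SE 0.19), Nfkbia, the inhibitor of NF-kappaB (0.33, SE 0.11), and Id2, an inhibitor of bHLH factors (0.81, SE 0.31). Hdc-GFPhi replicate 1 was the highest library for 18 of these 33 genes, against 21.9% of all tested genes, and Hdc-GFPlo replicate 4 for 0. More than 2 times the median of the other 6 libraries was reached by 11 of the 33 genes in Hdc-GFPhi replicate 1 and by 1 in Hdc-GFPlo replicate 4. Among the 30 immediate early genes those counts were 15 and 6, against 6.43% and 2.97% of all genes.

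Some genes of that list, named after their values were seen, show where the libraries part. Klf2, a Kruppel-like factor, was at 132 CPM in Hdc-GFPhi replicate 1, at 15.5 CPM in Hdc-GFPlo replicate 4 and at most at 13.8 CPM elsewhere. Ppp1r15a, the stress-induced partner of a phosphatase of eIF2, was at 618 and 188 CPM and at 151 to 233 CPM elsewhere. Socs3, the cytokine signalling inhibitor, was at 31.5 and 18.9 CPM and at 6.39 to 8.15 CPM elsewhere, as for Fos. The heat shock gene Hspa1a was low, at 3.72 CPM in Hdc-GFPhi replicate 1, at 0.338 CPM in Hdc-GFPlo replicate 4 and at 0.379 to 1.95 CPM elsewhere.

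Genes upstream of the response had values on both sides of 0. Of 21 kinases and factors tested, 10 had values above 0 and 11 below (median log2 fold change -0.07). At an unadjusted p under 0.05, 1 was higher and 2 lower, against 4.92% and 7.31% of all tested genes, and 0 passed after adjustment. The log2 fold change was -0.37 (SE 0.09) for Nras, a gene for a Ras protein, and 0.54 (SE 0.21) for Elk4, a partner of serum response factor. Srf itself was at 50.5, 43.0 and 45.3 CPM in Hdc-GFPhi and at 39.8, 34.8, 34.7 and 49.0 CPM in Hdc-GFPlo. Of 8 feedback inhibitors of ERK, 5 had values above 0 and 3 below (median 0.27). Here 0 were higher and 2 lower at an unadjusted p under 0.05, beside the same 4.92% and 7.31%, and 0 passed after adjustment. Rasa1 and Spred1, inhibitors of Ras, had log2 fold changes of -0.42 (SE 0.11) and -0.51 (SE 0.18), and Spry4 1.22 (SE 0.69). Spry1, an ERK-induced inhibitor named after its values were seen, had the same pair on top as Fos, at 73.7, 31.1 and 23.3 CPM against 23.7, 25.3, 22.7 and 42.6 CPM.

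Markers of other cells were measured beside these genes, since mature myeloid cells carry immediate early transcripts too. The summed level of 10 neutrophil markers was 5923 to 8249 CPM in Hdc-GFPhi and 2794 to 6832 CPM in Hdc-GFPlo. Of these 10, Mmp8 (170 CPM) and Mmp9 (137 CPM), named after their values were seen, were highest in Hdc-GFPhi replicate 1, and the rest elsewhere. By the sum, Hdc-GFPhi replicate 1 was the lowest of its group, and Hdc-GFPlo replicate 4 the lowest of all 7. The 8 monocyte and macrophage markers summed to 1608 to 1905 CPM and 1026 to 1734 CPM, with the lowest values of each group in the same 2 libraries, but Lyz2, which neutrophils also express, made up most of the sum (1360 CPM in Hdc-GFPhi replicate 1). Csf1r (27.2 CPM), Ly6c2 (187 CPM) and Ccr2 (10.9 CPM), chosen after their values were seen, were highest in Hdc-GFPhi replicate 1. The rest of the 8 were highest elsewhere. Cd68 (23.1 CPM), Emr1 (8.14 CPM) and Fcgr1 (1.41 CPM) peaked in Hdc-GFPlo replicate 1. Lyz2 (1801 CPM) peaked in Hdc-GFPhi replicate 2 and Cx3cr1 (1.90 CPM) in Hdc-GFPhi replicate 3. In Hdc-GFPlo replicate 4, Csf1r, Ly6c2 and Ccr2 were at 1.74, 10.8 and 0 CPM, the lowest values of Csf1r and Ly6c2. The 4 granulocyte progenitor markers summed to 2549 CPM in Hdc-GFPhi replicate 1, to 131 CPM in Hdc-GFPlo replicate 4 (Elane at 0 counts) and to 388 to 1397 CPM elsewhere. The 5 eosinophil markers summed to 699 CPM in Hdc-GFPhi replicate 1 and to 4.20 to 41.6 CPM elsewhere.

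The high values of Hdc-GFPlo replicate 4 were thus measured in the library with the lowest neutrophil, monocyte and granulocyte progenitor sums. For Hdc-GFPhi replicate 1 the granulocyte progenitor, eosinophil and erythroid sums were the highest of the 7 libraries, as the early genes were. So were the megakaryocyte and B cell sums, by little, those 3 of the 8 monocyte markers, and the neutrophil markers Mmp8 and Mmp9. The part of all these markers in the result was not tested. The 10 HSC and progenitor markers summed to 3196 CPM in Hdc-GFPhi replicate 1, the lowest value, and to 3954 CPM in Hdc-GFPlo replicate 4, within 3417 to 4035 CPM in the other libraries. The sums of the 5 erythroid markers were 1.47 to 76.6 CPM and 0.291 to 38.3 CPM, highest in Hdc-GFPhi replicate 1, with Hba-a1 and Hbb-b1 at 0 counts everywhere. Summed megakaryocyte markers (5 genes) were 770 to 1017 CPM in Hdc-GFPhi and 490 to 800 CPM in Hdc-GFPlo. Each group's highest sum was in Hdc-GFPhi replicate 1 and Hdc-GFPlo replicate 4, the libraries with high immediate early genes. Hdc-GFPhi replicate 3, where those genes were low, was close behind replicate 1 at 1006 CPM. Among these markers only Gp9, chosen after its values were seen, had Hdc-GFPhi replicate 1 and Hdc-GFPlo replicate 4 on top. Gp9 was at 102 and 87.3 CPM there and at 40.9 to 59.7 CPM elsewhere. Pf4 (235 CPM) and Vwf (152 CPM) were highest in Hdc-GFPhi replicate 3. The part of the megakaryocyte markers in the result was not tested. B cell markers (5 genes) gave 88.0 to 103 CPM and 66.7 to 96.5 CPM. T and NK cell markers (8 genes, Cd3e at 0 counts everywhere) gave 143 to 208 CPM and 133 to 151 CPM. Mast cell and basophil markers (5 genes) gave 399 to 443 CPM and 404 to 475 CPM. In each of these lists 1 gene made up most of the sum. These were Cd79b, Nkg7 and Gata2, at 89.6, 174 and 391 CPM in Hdc-GFPhi replicate 1. Ncr1, Klrd1, Gzma and Il2rb had 37 to 207 counts in Hdc-GFPhi replicate 3 and at most 1 in any other library. Endothelial and stromal markers (6 genes) gave 57.6 to 132 CPM and 51.7 to 112 CPM. Hdc itself, which drives the reporter, was at 37.6, 18.7 and 33.9 CPM in Hdc-GFPhi and at 16.2, 16.7, 21.6 and 4.44 CPM in Hdc-GFPlo, so the pair with high immediate early genes held the highest and the lowest Hdc level.

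**Figure D5:**
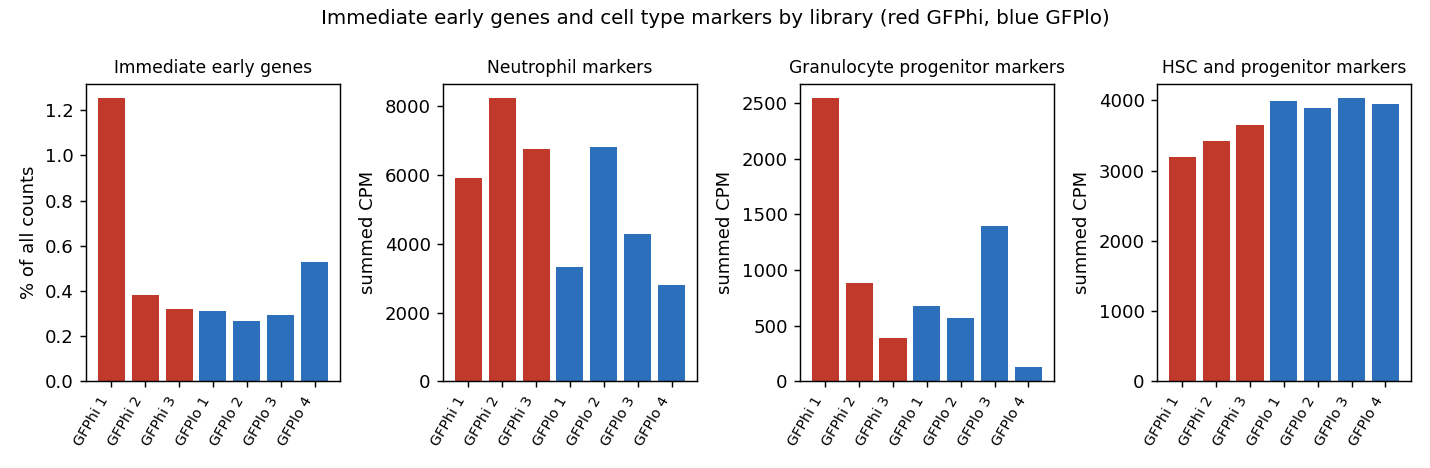
Share of all counts taken by the 34 immediate early genes (left panel, percent) and summed level of 3 marker lists (other panels, CPM) in each library, with Hdc-GFPhi in red and Hdc-GFPlo in blue. Hdc-GFPlo replicate 4 has the second highest share of immediate early genes (0.527%) with the lowest neutrophil (2794 CPM) and granulocyte progenitor sums (131 CPM).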

How the data were processed

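RNA of 500 sorted HSCs per library was isolated with a PicoPure kit, amplified with SMARTer Ultra Low Input reagents (no strand information) and made into libraries with Nextera XT, per the labels' protocols. The submitters' processing notes name Bowtie2, TopHat2, HTSeq 0.6.1, bcl2fastq 1.8.4 and the mouse build mm9. Annotation, strand setting and read filters: not given in the sources used here. Unnormalized read counts were deposited by the authors, 1 column per library and 1 row per gene symbol, and reads of overlapping or antisense genes cannot be separated. Columns were matched to samples by the library code in the descriptions, and groups and replicate numbers came from the titles.

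In R 4.3.3 with edgeR 4.0.16, filterByExpr (minimum count 10) left 12917 of 23284 genes. Libraries were TMM-scaled and compared by the quasi-likelihood F test with robust settings, group as the only term and Benjamini-Hochberg adjustment over all genes at 0.05. Each standard error is |log2 fold change| over the root of its F statistic. Log2 values by library used a pseudocount of 2. Exon lengths came from GENCODE M21 (GRCm38), and no coordinates were taken for the counts. The members, gene lists and alternatives were chosen with earlier results of these data known. All 34 genes are described. Of each other list, the 3 genes with the smallest unadjusted p are named, except 1 that is not reported here, and for the marker lists their sums are given instead. Replicate pairs differed by 25.8 to 93.8 chi-square units per degree of freedom, so each was kept as 1 sample. The edgeR step was tested on simulated data. Alternatives were DESeq2 1.42.0 with its own adjustment, DESeq2 size factors or library totals as scaling, no filter or at least 5 CPM in 3 libraries, limma 3.58.1 with quality weights, a replicate block and leaving out libraries. Figures were drawn with matplotlib 3.10.9.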

Additional observations from a re-analysis of the deposited data

Results flagged for a closer look

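In Hdc-GFPlo, Hdc-GFPlo replicate 4 stood apart from the other 3 libraries for 8 of the 30 immediate early genes tested, by Dixon's criterion for groups of 4 (the gap to the nearest library fills most of the range). These were Fos (1098 CPM against 303 to 361 CPM), Egr1 (823 against 258 to 279 CPM), Jund (129.0 against 62.0 to 71.3 CPM), Nr4a1 (26.1 against 8.89 to 10.7 CPM), Ier2 (364 against 214 to 233 CPM), Dusp1 (441 against 277 to 301 CPM), Zfp36 (352 against 141 to 166 CPM) and Btg2 (95.0 against 33.1 to 42.5 CPM). In the same group Dusp4 was low in Hdc-GFPlo replicate 3 (3.93 CPM against 7.20 to 7.46 CPM). Chance flags about 1 in 20 groups, and these genes vary together. The criterion was applied to these genes only, so the share of all tested genes that it would flag is not known. Hdc-GFPlo replicate 4 had already stood out in these values, so the count is no test. Hdc-GFPlo replicate 4 is the library labelled as the GFP-negative fraction. The criterion was not applied to Hdc-GFPhi, which has 3 libraries.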

How the results depend on the processing

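No immediate early gene passed the test over all genes under any of the 15 alternatives run, and no gene of the table did except under DESeq2, which called 344. Pairing by replicate number was not supported by the data: deviations of same-numbered libraries from their group means correlated at -0.06, -0.01 and -0.14, and 0 of 3 Hdc-GFPhi libraries correlated best with their own number. The replicate block needs partners, so Hdc-GFPlo replicate 4 was left out of that fit. It put 7 immediate early genes at an unadjusted p under 0.05 and higher, against 6 without that library and with no block, and Cyr61 turned (0.88). Of all 12807 genes in the block fit, 1589 were at that level, 36.7% of them higher. The count of 2 genes higher at that level became 4 with no filter, 5 with DESeq2, 6 when Hdc-GFPhi replicate 1 was left out together with Hdc-GFPlo replicate 4, and 0 to 8 when 1 library was left out (0 without Hdc-GFPlo replicate 1 or 3, 1 without Hdc-GFPhi replicate 1 or Hdc-GFPlo replicate 2, 5 and 8 without Hdc-GFPhi replicates 2 and 3). Over all genes, 1842 of 16357 were at that level with no filter (39.2% of them higher). Without Hdc-GFPhi replicates 2 and 3 the counts were 1490 of 13313 (33.6% higher) and 1884 of 13353 (39.7%). Without Hdc-GFPlo replicates 1, 2 and 3 they were 1344 of 12724 (39.7%), 1226 of 12750 (40.3%) and 1192 of 12741 (39.7%). The median log2 fold change of 0.37 ranged from 0.01 to 0.69 over the fits without a library. Over the same fits, genes whose groups did not overlap numbered 0 to 9 with Hdc-GFPhi above and 0 to 1 with Hdc-GFPhi below. Over all tested genes the share above was 10.4% without Hdc-GFPlo replicate 4. With all libraries the shares were 6.02% above and 5.87% below. Signs turned in 21 single-gene values, for 11 genes, and 423 kept sign and side of the threshold. With limma they turned for Atf3 (-1.22), Nr4a2 (-0.012) and Btg1 (-0.0024), and without both libraries for Nr4a2 (-0.11), Dusp6 (-0.16) and Btg1 (-0.079). Over the fits without 1 library the ranges were -0.34 to 2.19 for Fos, -6.61 to 0.89 for Atf3, -0.32 to 1.04 for Egr1, -0.056 to 0.34 for Nr4a2, -0.092 to 0.46 for Ier3, -0.050 to 0.35 for Dusp5, -0.087 to 0.20 for Dusp6, -0.22 to 1.11 for Zfp36, -0.011 to 0.11 for Zfp36l2, -0.12 to 0.16 for Btg1 and -2.80 to 0.48 for Cyr61. The fit of Atf3 without Hdc-GFPhi replicate 1 sets 0 counts against 0 to 35 counts and is no bound. The causes were not tested. At this depth Fosl1, Egr3 and Nr4a3 were at or near the limit of detection.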
